A study of Mus musculus with 6 samples.

Results

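Lysosomal genes were examined on 6 arrays of the established mouse line 3T3-L1, fibroblasts that turn into adipocytes when induced. The 44 genes were taken from a list of lysosomal membrane proteins, hydrolases and the TFE transcription factors, matched by symbol to the annotation of the array, with 1 probe set per gene. All 44 were found among 19938 named genes, and 41 passed a filter on dim signal, a mean over the 6 arrays at or above 5.87 on the log2 scale, which left 9969 genes in all. The other 3 members, Cln3, Ctsh and Ctss, lay between 3.86 and 5.14 on every array, too near the floor for a difference to be read. Cd68 passed the filter only through 1 array, the fibroblasts given AICAR.

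Each of 6 conditions had 1 array, so no difference between a pair of arrays has a replicate check. The fibroblasts grew in medium with 10% calf serum and were left untreated or given adenine or AICAR, each at 0.5 mM, for 3 days. Adipocytes were made from confluent fibroblasts in 10% fetal bovine serum, with IBMX at 115 µg/ml, dexamethasone at 1 µmol/l and insulin at 1 µg/ml for 3 days, then insulin alone for 3 days more. They were untreated, or had either compound at 0.5 mM in the induction medium only. Adenine is a purine base that cells salvage to AMP, and AICAR is a nucleoside that cells phosphorylate to an analogue of AMP, an activator of AMP-activated protein kinase. No knockout or transgene is involved. One label gives every sample the cell type fibroblasts, and another separates differentiated adipocytes from undifferentiated cells. Cell state therefore goes with the serum, the induction drugs and the 3 further days in insulin, and these cannot be told apart.

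The labels fit the marker genes. Of 10 adipocyte markers, 9 were at or above the filter floor on each adipocyte array and 3 on each fibroblast array, and their summed linear signal was 15314 to 30575 against 3823 to 4919. The highest sum was that of the adipocytes given adenine. All 9 fibroblast markers were above the floor on all 6 arrays, with the lowest sum (11609) again in the adenine adipocytes and sums from 23794 to 37687 elsewhere. Medians over all probe sets lay between 5.41 and 5.49.

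Lysosomes are acidic organelles that break down material delivered by endocytosis, phagocytosis and autophagy. Their lumen holds proteases, glycosidases, sulfatases and lipases, which reach it largely by mannose 6-phosphate sorting, and their membrane holds heavily glycosylated proteins, transporters and ion channels. TFEB, TFE3 and MITF are related helix-loop-helix transcription factors that bind E-box sequences in many lysosomal promoters and are kept in the cytoplasm when the kinase mTORC1 is active at the lysosome. In fat cells lysosomal acid lipase takes part in the breakdown of lipid droplets by autophagy.

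The first question was how lysosomal genes differed between adipocytes and fibroblasts. In untreated cells 37 of the 41 members that passed the filter were lower in adipocytes, with a median log2 difference of -0.63, beside 0.02 over all 9969 genes. Cd68, near the filter floor on both arrays, is among the 37. At least 2-fold lower were 11 members (26.8%), where 4.27% of all tested genes were. None was at least 2-fold higher, against 2.88% of all genes. The 11 were the proteases Ctsa, Ctsk, Ctsl, Ctsz and Tpp1, the thioesterase Ppt1, the glycosidases Hexa, Naglu, Idua and Gaa, and the ceramidase Asah1. All 3 adipocyte arrays lay below all 3 fibroblast arrays for 26 members (63.4%), as they did for 19.9% of all genes. The reverse held for 1 member, Man2b1 (22.1% of all genes). In bulk RNA, fewer cells of a type and less RNA per cell cannot be told apart.

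**Figure D1:**
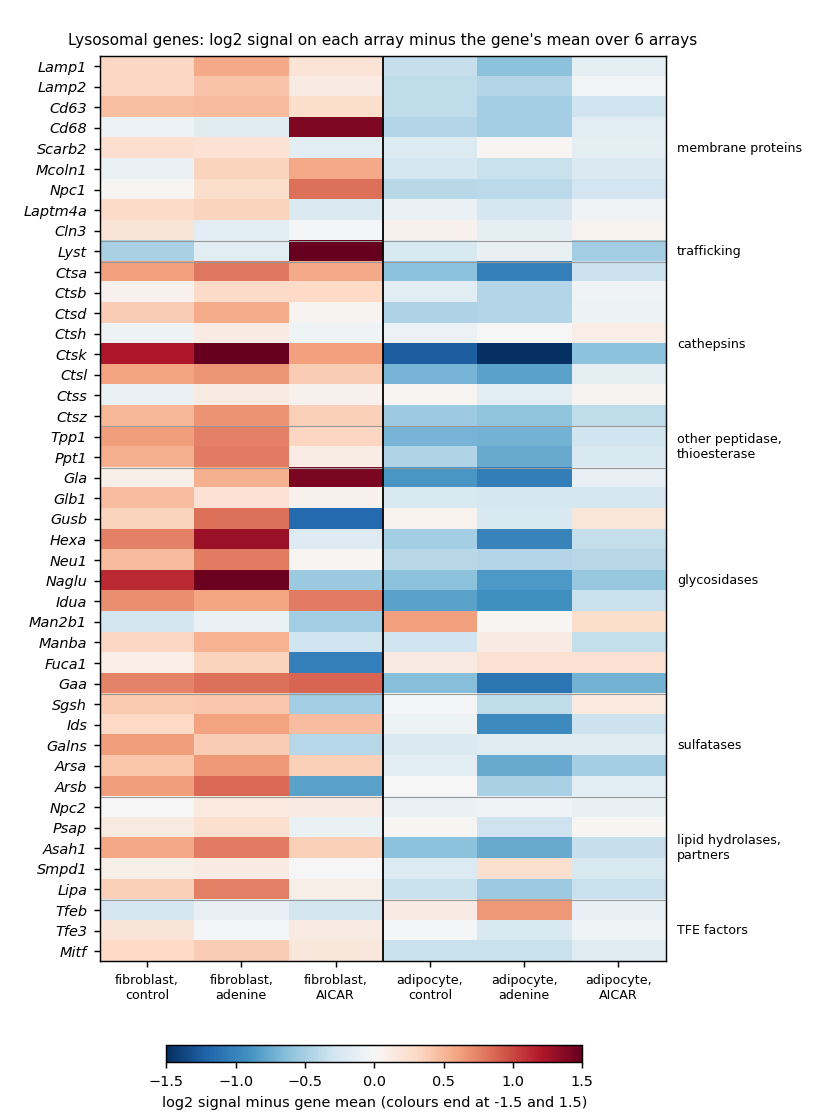
Log2 signal of the 44 members (rows, grouped by role) on the 6 arrays (columns), each as the difference from that gene's own mean over the arrays, in colour. Most rows are red in the 3 fibroblast columns and blue in the 3 adipocyte columns. Exceptions stand in the AICAR fibroblast column, where Lyst, Cd68 and Gla are high and Gusb, Fuca1, Arsb and Naglu are low.

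State could be tested in an additive limma model that used the 6 arrays together and had a term for state and 1 for each compound. Its error is the departure from additivity between conditions, with 2 residual degrees of freedom, and it does not measure the spread between cultures. Of the 41 members 12 fell in adipocytes (29.3%), against 5.37% of all genes, and 0 rose, against 5.22%. They were Cd63, Ctsa, Ctsk, Ctsl, Ctsz, Tpp1, Gla, Neu1, Idua, Gaa, Arsa and Asah1. The count differed between fits that left out a pair of arrays, and these fits also have fewer residual degrees of freedom. Without the pair of control arrays 0 of 41 members and 0 of 9969 genes passed in limma (16 members and 2095 genes at an unadjusted p under 0.05), without the adenine pair 5 members passed (5.13% of all genes), and without the AICAR pair 15 (9.24% of all genes). The members' coefficients lay below 0 for 36 to 38 of 41 in these 3 fits. With all 6 arrays, 28 of 41 members and 29.5% of all genes had an unadjusted p under 0.05.

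Among membrane proteins, all 8 that passed the filter were lower in untreated adipocytes, by 0.16 to 0.83, and none by 2-fold. Cd68, 1 of these 8, read 5.95 and 5.60 on the untreated arrays, near the filter floor, so its direction carries little weight. Cd63, a tetraspanin of lysosomes and multivesicular bodies, read 9.94, 9.97 and 9.76 in control, adenine and AICAR fibroblasts and 9.11, 8.99 and 9.20 in the corresponding adipocytes. The groups did not overlap, and Cd63 fell by 0.79 (SE 0.15, limma adjusted p = 0.0341). The major membrane glycoproteins Lamp1 and Lamp2 also had all adipocyte arrays below all fibroblast arrays, with log2 differences of -0.65, -1.19 and -0.34 for Lamp1 at the 3 media (control, adenine, AICAR) and of -0.69, -0.87 and -0.16 for Lamp2. Neither passed the model (limma adjusted p = 0.0778 and 0.11). The calcium channel Mcoln1 and the cholesterol exporter Npc1 were lower by 0.16 and 0.43 without a compound. Scarb2, the receptor that carries glucocerebrosidase to lysosomes, stood at -0.46 and Laptm4a at -0.39, and both overlapped between states.

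Cathepsins, the lysosomal proteases, had a group median of -1.14 over the 6 members that passed the filter, with all 6 below 0 at each of the 3 media and 4 at least 2-fold lower without a compound. Ctsk, a collagen-degrading cysteine protease, read 8.80, 9.21 and 8.20 in control, adenine and AICAR fibroblasts. In adipocytes it read 6.35, 5.97 and 6.96, so that every adipocyte array lay far below every fibroblast array. The untreated difference was -2.45 (5.47-fold lower), the largest among the 41 members, and in the model Ctsk fell by 2.31 (SE 0.37, limma adjusted p = 0.0236).

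Ctsa, the serine carboxypeptidase that protects the sialidase Neu1 and the galactosidase Glb1, read 11.36, 11.53 and 11.31 in fibroblasts and 10.13, 9.71 and 10.42 in adipocytes. It was 2.35-fold lower without a compound and fell by 1.31 (SE 0.21, limma adjusted p = 0.0234). The cysteine protease Ctsl read 11.65, 11.71 and 11.43 against 10.35, 10.25 and 10.92, and fell by 1.09 (SE 0.22, limma adjusted p = 0.0377). For both genes the AICAR adipocytes were the highest of the 3 adipocyte arrays and still lay below every fibroblast array. Ctsz, a carboxypeptidase, read 10.30, 10.48 and 10.16 against 9.25, 9.19 and 9.42 and fell by 1.02 (SE 0.16, limma adjusted p = 0.0236). The aspartic protease Ctsd and the cysteine protease Ctsb showed the same separation of arrays with smaller differences, -0.85, -1.0 and -0.11 for Ctsd and -0.22, -0.72 and -0.35 for Ctsb at the 3 media, and did not pass the model (limma adjusted p = 0.11 and 0.152).

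Tpp1 and Ppt1 are enzymes whose loss causes neuronal ceroid lipofuscinosis in childhood. Tpp1, a tripeptidyl peptidase, read 11.02, 11.14 and 10.71 in fibroblasts and 9.70, 9.69 and 10.09 in adipocytes, and fell by 1.13 (SE 0.21, limma adjusted p = 0.0299), without overlap. Ppt1, which removes palmitate from proteins, read 9.40, 9.63 and 8.97 against 8.39, 8.09 and 8.61. Its arrays did not overlap between states, but it did not pass (limma adjusted p = 0.0647), and its untreated difference of -1.0 was close to the 2-fold threshold.

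Of 11 glycosidases 9 were lower in untreated adipocytes (median -0.90), 4 of them at least 2-fold. Gaa, the acid glucosidase that degrades lysosomal glycogen, read 10.68, 10.76 and 10.80 in fibroblasts and 9.29, 8.84 and 9.22 in adipocytes. The fibroblast arrays lay close together, and Gaa fell by 1.63 (SE 0.16, limma adjusted p = 0.00922), the smallest adjusted p among the members. Idua, the iduronidase of heparan and dermatan sulfate breakdown, read 8.43, 8.32 and 8.51 against 6.93, 6.82 and 7.40 and fell by 1.37 (SE 0.16, limma adjusted p = 0.0117). Neither gene overlapped between states. These 2 genes and Ctsk were the members at least 2-fold lower at each of the 3 media, and the share of all genes was not counted.

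Naglu, which removes N-acetylglucosamine from heparan sulfate, read 9.56, 9.91 and 7.88 in fibroblasts and 7.83, 7.57 and 7.87 in adipocytes. The untreated difference of -1.73 (3.32-fold lower) shrank to -0.01 between the AICAR arrays, where the AICAR fibroblasts lay just above the adipocytes. Hexa, the alpha subunit of beta-hexosaminidase, read 10.97, 11.52 and 10.02 in fibroblasts and 9.71, 9.22 and 9.86 in adipocytes, with no overlap and a gap of 0.16 between the AICAR arrays. Neither gene passed the model (limma adjusted p = 0.109 and 0.105). The sialidase Neu1, with 8.01, 8.30 and 7.55 against 7.11, 7.09 and 7.11, fell by 0.85 (SE 0.19, limma adjusted p = 0.0471). Gla, the alpha-galactosidase lacking in Fabry disease, read 9.78, 10.22 and 11.11 against 8.82, 8.66 and 9.57 and fell by 1.35 (SE 0.18, limma adjusted p = 0.0152). All adipocyte arrays lay below all fibroblast arrays for Neu1 and Gla, and the AICAR array was the highest of each state for Gla.

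The remaining glycosidases differed less or in the other direction. Man2b1, a lysosomal alpha-mannosidase, had the largest positive difference among the members without a compound, reading 9.20, 9.38 and 8.95 in fibroblasts and 10.08, 9.49 and 9.73 in adipocytes. No adipocyte array reached down to the fibroblast arrays, but the gap was 0.11 between the adenine arrays, and Man2b1 did not pass (limma adjusted p = 0.117). Fuca1 (alpha-fucosidase) and Gusb (beta-glucuronidase) overlapped between states, with untreated differences of 0.03 and -0.28. Glb1 (beta-galactosidase) stood at -0.70 and Manba (beta-mannosidase) at -0.61.

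All 5 sulfatases were lower in untreated adipocytes, by 0.38 to 0.85, and none by 2-fold. Arsa, which removes sulfate from sulfatide, read 8.41, 8.65 and 8.35 in fibroblasts and 7.84, 7.24 and 7.49 in adipocytes and fell by 0.95 (SE 0.20, limma adjusted p = 0.0411). Its groups did not overlap. Ids, of heparan and dermatan sulfate breakdown, stood at -0.38, -1.56 and -0.79 at the 3 media and did not pass (limma adjusted p = 0.074). Arsb, Galns and Sgsh, which act on dermatan, keratan and heparan sulfate, were lower in adipocytes at 2 of the 3 media and higher between the AICAR arrays, by 0.62, 0.25 and 0.66.

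In the lipid group all 5 members were lower in untreated adipocytes and 1, the acid ceramidase Asah1, at least 2-fold. Asah1 read 10.80, 11.01 and 10.58 in fibroblasts and 9.61, 9.47 and 9.88 in adipocytes and fell by 1.14 (SE 0.20, limma adjusted p = 0.0277), with no overlap. Lipa, the acid lipase that hydrolyses cholesteryl esters and triglycerides, stood at -0.69, -1.29 and -0.42 at the 3 media, with no overlap between states, and did not pass (limma adjusted p = 0.0661). The cholesterol carrier Npc2 (-0.09), the saposin precursor Psap (-0.12) and the acid sphingomyelinase Smpd1 (-0.29) were nearest to 0.

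The 3 TFE factors did not share a direction. Tfeb read 6.28, 6.42 and 6.27 in fibroblasts and 6.66, 7.19 and 6.41 in adipocytes, and stood higher in adipocytes at each medium, by 0.38, 0.77 and 0.14. Mitf read 6.94, 7.02 and 6.82 against 6.31, 6.31 and 6.46, with every adipocyte array below every fibroblast array. Tfe3 was the steadiest, with 8.46, 8.24 and 8.40 against 8.25, 8.03 and 8.22, and its groups overlapped by a small margin. None of them passed the state term (limma adjusted p = 0.169 for Tfeb, 0.389 for Tfe3 and 0.0706 for Mitf). Array signal gives transcript levels, and the position of these factors in the cell was not measured. Lyst, a regulator of lysosome size and trafficking, differed by 0.27, 0.05 and -2.03 at the 3 media.

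**Figure D2:**
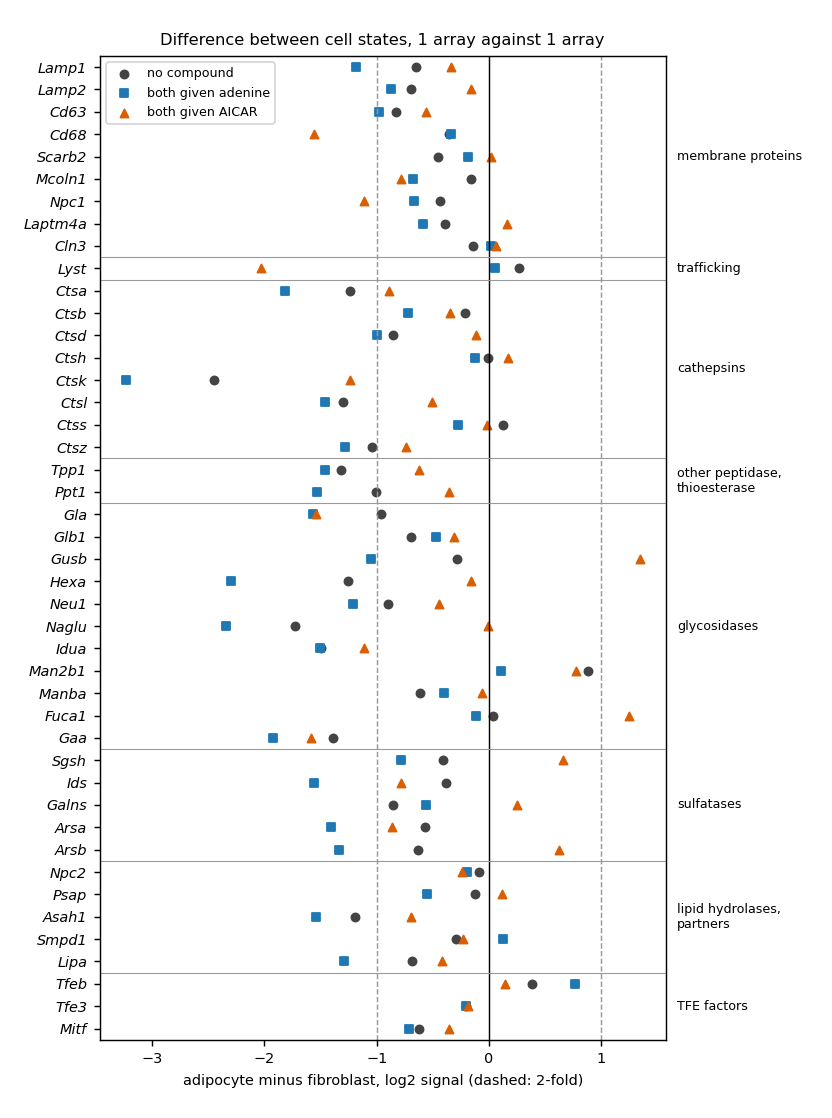
Log2 signal of adipocytes minus fibroblasts for each of the 44 members (rows), without a compound (circles), between the adenine arrays (squares) and between the AICAR arrays (triangles), with dashed lines at 2-fold. Most points lie left of 0, with Ctsk farthest at -3.24 between the adenine arrays. Gusb (1.35) and Fuca1 (1.25) lie beyond 2-fold on the right for the AICAR arrays.

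The size of the state difference varied with the medium. Between the adenine arrays 37 of 41 members were lower in adipocytes, with a median of -0.98. At least 2-fold lower were 19, against 8.47% of all genes, and 0 were at least 2-fold higher, against 6.75%. Between the AICAR arrays 31 were lower, with a median of -0.35. At least 2-fold lower were 7, Cd68 among them, against 4.6% of all genes, and 2 were at least 2-fold higher, against 5.93%, so that the share higher was no larger than the background. Over all 9969 genes the medians were 0.03 and 0.00. Whether these differ from the untreated contrast was not tested, since each rests on 1 pair of arrays. Lower at each of the 3 media were 29 of the 41 members, Cd68 among them, and the share of all genes was not counted.

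Some lysosomal genes are abundant in macrophages, so leukocyte markers were read on the same arrays. Of 14 such markers 2 to 3 were at or above the floor on each fibroblast array and 0 to 1 on each adipocyte array, and their summed linear signal was 577 to 679 against 334 to 399. The markers above the floor were Lyz2, Cd14 and Cd53. Lyz2, a lysozyme, read 7.99, 8.12 and 7.10 in fibroblasts and 5.32, 3.81 and 5.57 in adipocytes. The defining leukocyte markers Ptprc, Adgre1, Csf1r and Itgam were below the floor on all 6 arrays, between 3.47 and 5.04. Endothelial markers (0 of 5) were below it throughout, and 1 of 4 epithelial markers reached it on 3 arrays. Lyz2 was the brightest marker on each fibroblast array, and its adipocyte values lay below the floor, so the size of its difference cannot be read. Over all 14 leukocyte markers, most of them below the floor, the median untreated difference was 0.10. The part of Lyz2 in the result was not tested.

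The members' promoters were searched for the E-box CACGTG and for its longer form TCACGTGA, both of which read the same on either strand. The longer form contains the shorter. RefSeq promoter windows of 300 bases (250 before to 50 after the start, GRCm38.p6) were at hand for 39 of the 44 members. CACGTG was found for 12 of 39 (30.8%), against 8.09% of 27025 genes with a window. Among members that passed the filter it was found for 11 of 37 (29.7%), against 12.2% of the 8067 tested genes with a window. TCACGTGA was found for 5 of 39 (12.8%), against 1.12%, and for 4 of 37 that passed the filter (10.8%), against 2.54% of tested genes. The 12 were Arsa, Cln3, Ctsa, Ctsd, Ctsl, Gaa, Gla, Glb1, Lamp1, Mcoln1, Naglu and Sgsh. E-boxes are known from many lysosomal promoters, so an excess in a list of lysosomal genes is no independent result. Its relation to the lower signal in adipocytes was not tested. A match is a string of letters and was not tested as a binding site. The stretches before the start that hold these matches are shown for 8 of them, 5′ to 3′ on the strand of the gene with CACGTG in capitals, because they include the densest cluster (Lamp1), the membrane channel Mcoln1, 3 cathepsins and 3 glycosidases (Gla, Naglu, Gaa). Ctsd has 2 stretches. A further Ctsa match, after the start, is not printed.
Lamp1 (chr8:13159080-13159160, forward strand, 81 to 1 bases before the start): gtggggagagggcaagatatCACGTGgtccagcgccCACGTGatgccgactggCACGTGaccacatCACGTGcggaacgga
Mcoln1 (chr8:3500428-3500499, forward strand, 91 to 20 bases before the start): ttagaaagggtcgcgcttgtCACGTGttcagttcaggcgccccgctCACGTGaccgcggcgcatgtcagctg
Ctsa (chr2:164833743-164833772, forward strand, 30 to 1 bases before the start): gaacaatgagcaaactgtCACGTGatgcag
Ctsd (chr7:142388047-142388077, reverse strand, 250 to 220 bases before the start): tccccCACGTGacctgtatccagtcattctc
Ctsd (chr7:142387900-142387945, reverse strand, 118 to 73 bases before the start): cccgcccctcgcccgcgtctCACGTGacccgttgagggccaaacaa
Ctsl (chr13:64370731-64370770, reverse strand, 250 to 211 bases before the start): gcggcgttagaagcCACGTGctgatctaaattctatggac
Gla (chrX:134601174-134601252, reverse strand, 247 to 169 bases before the start): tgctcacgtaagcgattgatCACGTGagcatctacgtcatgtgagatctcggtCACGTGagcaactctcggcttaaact
Naglu (chr11:101070001-101070046, forward strand, 93 to 48 bases before the start): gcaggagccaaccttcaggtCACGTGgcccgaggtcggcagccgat
Gaa (chr11:119267803-119267848, forward strand, 160 to 115 bases before the start): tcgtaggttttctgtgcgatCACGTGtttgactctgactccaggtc

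The Lamp1 stretch holds 4 matches, with first bases 61, 45, 28 and 15 bases before the start. Gla holds 2, both in the longer form, at 227 and 194 bases before it. Mcoln1 holds 2, at 71 and 45, of which the second is in the longer form. Of the 37 members with a window that passed the filter, the 11 with CACGTG had a median difference of -0.85 between untreated adipocytes and fibroblasts (range -1.73 to -0.16, all below 0). The 26 without it had a median of -0.53 (range -2.45 to 0.88, 22 below 0). The ranges overlapped widely, and Ctsk, the member with the largest difference, has no CACGTG in its window.

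The next comparison set AICAR against control in fibroblasts. The members did not share a direction here. At least 2-fold lower were 5 of the 41 members (12.2%, against 3.69% of all tested genes), namely the glycosidases Naglu, Gusb and Fuca1 and the sulfatases Arsb and Galns. At least 2-fold higher were 3 members (7.32%, against 1.7%), Lyst, Cd68 and Gla. Cd68 was tested only because of its level on the AICAR array, and without it the count was 2 of 40. The median over the 41 was -0.22, with 31 below 0, beside -0.03 over all genes. After quantile normalization it was -0.10. Cathepsins stayed nearer to 0, between -0.60 and 0.23.

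Lyst read 7.91, 8.24 and 9.91 in control, adenine and AICAR fibroblasts and 8.18, 8.29 and 7.89 in adipocytes. The AICAR fibroblasts stood alone, 4.01-fold above the control, and the other 5 arrays lay close together. Cd68, a lysosomal glycoprotein used as a macrophage marker, read 5.95, 5.85 and 7.44 against 5.60, 5.51 and 5.88. Its AICAR value was the single one clear of the filter floor, so the 2.81-fold difference depends on the background correction, which is not known. On the AICAR fibroblast array Ptprc, Adgre1, Csf1r and Itgam were between 3.78 and 5.0, and the summed leukocyte signal was 577 against 644 in the control. That sum leans on Lyz2, the brightest of the 14 markers, which read 7.10 against 7.99. The marker median went the other way, 4.94 against 4.53, with both values below the filter floor. Gla was above its control in both states, by 1.32 in fibroblasts (2.5-fold) and 0.74 in adipocytes.

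Naglu was 3.2-fold lower with AICAR in fibroblasts (-1.68). Gusb, which removes glucuronate from glycosaminoglycans, read 8.67, 9.16 and 7.18 in fibroblasts and 8.39, 8.11 and 8.52 in adipocytes. The AICAR fibroblasts were again the array apart, 2.82-fold below the control. Fuca1 had the same form, with 9.11, 9.35 and 7.99 against 9.14, 9.24 and 9.24 and a difference of -1.12.

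Among sulfatases 4 of 5 were lower with AICAR (median -0.91). Arsb read 9.57, 9.80 and 8.15 in fibroblasts and 8.94, 8.46 and 8.77 in adipocytes, 2.67-fold below the control. Galns read 7.87, 7.62 and 6.80 against 7.02, 7.06 and 7.05, and its AICAR fibroblast value lay below all adipocyte values. Just inside the 2-fold threshold were Hexa at -0.95 and Sgsh at -0.91. Ids (0.16) and Idua (0.08) stood slightly above the control. The membrane proteins Npc1 (0.81) and Mcoln1 (0.67) stood above the control and Laptm4a (-0.50) below it. The TFE factors were at -0.01 (Tfeb), -0.06 (Tfe3) and -0.12 (Mitf). Members with CACGTG in the promoter window ranged from -1.68 to 1.32 (median -0.11 over 11) and those without it from -1.49 to 2.0 (median -0.24 over 26).

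**Figure D3:**
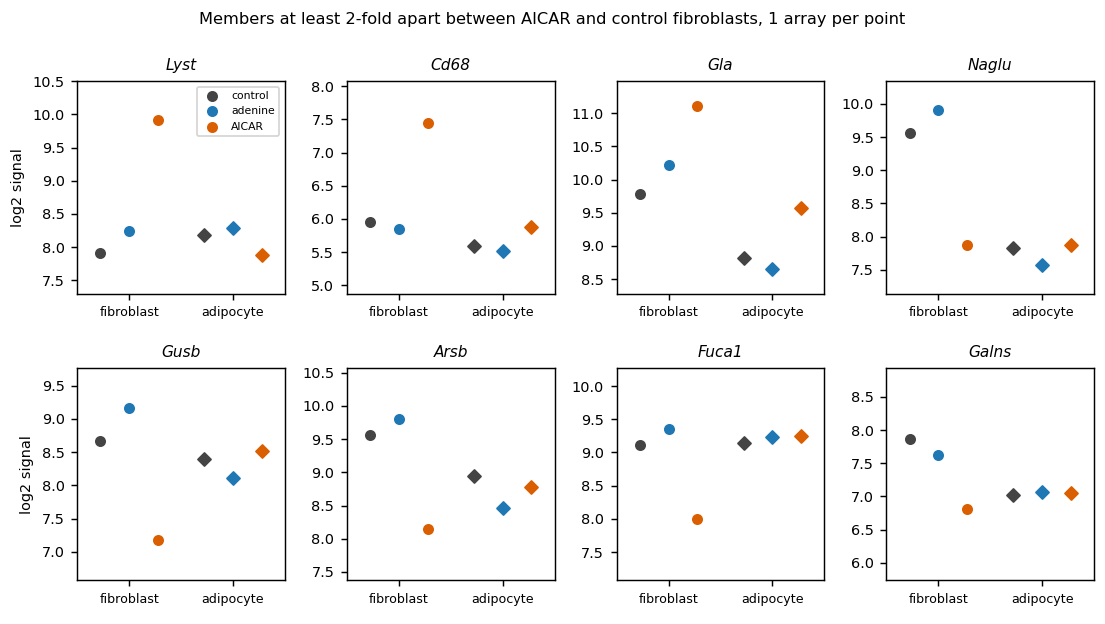
Log2 signal of the 8 members at least 2-fold apart between AICAR and control fibroblasts, 1 point per array, with colours for the medium, circles for fibroblasts and diamonds for adipocytes. Each panel spans the same range of log2 units on its own level. The AICAR fibroblast point stands apart from the other 5 in Lyst, Cd68, Gusb and Fuca1, while for Naglu it lies just above the adipocyte points.

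Adenine was then set against the same control fibroblasts. No member was 2-fold apart, where 0.0802% of all genes were at least 2-fold higher and 0.0502% lower. The differences were small and mostly positive, with 35 of 41 members above 0 and a median of 0.18, beside -0.01 over all genes and a robust SD of 0.16 over all tested genes. Hexa had the largest value (0.55), followed by Gusb (0.49), Gla (0.44), Mcoln1 (0.43), Ctsk (0.41) and Lipa (0.40). The lowest were Glb1 (-0.25), Galns (-0.25) and Tfe3 (-0.22). All 6 cathepsins and all 5 lipid group members were above 0, as were 9 of 11 glycosidases, 4 of 5 sulfatases and 6 of 8 membrane proteins. With 1 array a side, differences of this size cannot be set against the variation between cultures.

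In adipocytes, adenine had been present during the first 3 days and was then withdrawn for 3 days. No member was 2-fold apart from untreated adipocytes, against 1.24% of all genes higher and 2.4% lower. Members below 0 numbered 31 of 41, with a median of -0.13, beside 0.02 over all genes. After centring each array on its median the members' median was -0.03. Ids (-0.88), Arsa (-0.60), Man2b1 (-0.59), Hexa (-0.49) and Arsb (-0.48) had the lowest values. The highest were Tfeb (0.52), Smpd1 (0.45) and Manba (0.43). Tfeb thus had its highest level of the 6 arrays in these cells, which also had the highest adipocyte marker sum and the lowest fibroblast marker sum. The part of either sum in these values was not tested.

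AICAR during induction left every member within 2-fold of untreated adipocytes, where 0.612% of all genes were at least 2-fold higher and 0.381% lower. The median was 0.08 over 41 members, with 28 above 0, beside -0.01 over all genes. Gla had the largest value (0.74), followed by Ctsk (0.62), Ctsl (0.57), Idua (0.47), Tpp1 (0.39) and Ctsd (0.39). All 6 cathepsins and all 8 membrane proteins were above 0, Cd68 among them with both arrays near the filter floor. Man2b1 (-0.35), Arsa (-0.35) and Lyst (-0.29) were the lowest. Of the members at least 2-fold higher in AICAR fibroblasts, Gla had the highest value here, while Cd68 stood at 0.28 and Lyst at -0.29. The 5 that were at least 2-fold lower there lay nearer to the control here, with Naglu at 0.05, Fuca1 at 0.10, Gusb at 0.13, Galns at 0.03 and Arsb at -0.17. Exposure and recovery differed between the states, and the difference between the responses was not tested.

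**Figure D4:**
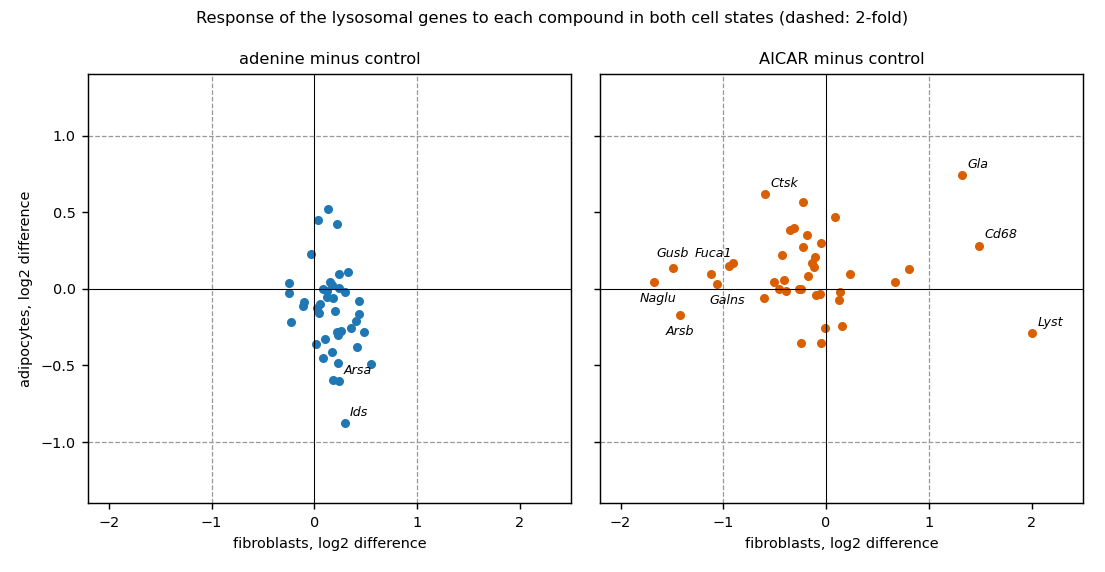
Log2 difference from the control in fibroblasts (horizontal) and in adipocytes (vertical) for the 41 members that passed the filter, with adenine on the left, AICAR on the right and dashed lines at 2-fold. Names mark members at least 2-fold apart in fibroblasts or past 0.6 in adipocytes. Adenine points stay within 2-fold in both states, mostly right of 0 and below 0. AICAR points spread along the horizontal axis from Naglu (-1.68) to Lyst (2.0) and stay between -0.35 and 0.74 on the vertical axis.

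The compounds were given at the same dose and for the same time, and were compared directly. AICAR and adenine each had 1 array in a state, so these are differences without a test or an interval. In fibroblasts 6 of 41 members were at least 2-fold lower with AICAR than with adenine (14.6%, against 3.89% of all genes), namely Naglu (-2.03), Gusb (-1.98), Arsb (-1.65), Hexa (-1.49), Fuca1 (-1.36) and Ctsk (-1.01). Higher by 2-fold were Lyst (1.68) and Cd68 (1.59), 4.88% of members against 1.59% of all genes, and without Cd68 the count was 1 of 40. Hexa and Ctsk passed the threshold here and not against the control, since adenine stood above the control and AICAR below it. In adipocytes no member was 2-fold apart, against 2.21% of all genes higher and 1.21% lower. There 34 of 41 members were higher with AICAR than with adenine (median 0.30, beside -0.03 over all genes), led by Ctsk (0.99) and Gla (0.91), and Tfeb was the lowest (-0.77).

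In the additive limma model neither compound term gave a call. For adenine 0 of 41 members passed in limma, as did 0% of all genes higher and 0% lower, and 0 members and 62 genes had an unadjusted p under 0.05. For AICAR 0 of 41 members passed in limma, and again 0% of all genes in either direction. At an unadjusted p under 0.05 there were 226 genes (2.27%) and 2 members, Gla and Cd68. Cd68 was tested only because of its level on the AICAR fibroblast array, so its p is no support. Gla had an AICAR coefficient of 1.03 (SE 0.22, limma adjusted p = 0.991). A response seen in 1 state only enters the error of this model.

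Other genes of the pathway were read from lists that, like the members, were chosen with earlier results of these data known. Over all tested genes 4.27% were at least 2-fold lower in untreated adipocytes. In the limma model 5.37% of them fell and 5.22% rose. Of 15 further lysosomal hydrolases and proteins that passed the filter, 12 were lower in untreated adipocytes (median -0.80), 5 at least 2-fold (Dpp7, Aga, Scpep1, Lgmn and Gm2a). In the limma model 4 fell, the peptidases Dpp7, Scpep1 and Lgmn and the glycosylasparaginase Aga. Dpp7 read 9.90, 10.23 and 8.99 in fibroblasts and 7.61, 7.46 and 8.19 in adipocytes, with no overlap, and fell by 1.95 (limma adjusted p = 0.0343). The subunits of the V-ATPase, the proton pump that acidifies lysosomes, were lower in 14 of 16 cases (median -0.59). At least 2-fold lower were Atp6ap2 and Atp6v1f, and 2 fell in the model, Atp6ap2 by 1.01 (limma adjusted p = 0.0404) and Tcirg1 by 0.94 (limma adjusted p = 0.0188). Atp6ap2 read 9.25, 9.34 and 9.06 in fibroblasts against 7.70, 8.54 and 8.38 in adipocytes. Autophagy genes were divided, with 17 of 26 lower (median -0.19). In that list 2 of 26 fell in the model, Gabarap and the receptor Sqstm1, and 1 rose, Atg101. These shares are near those of all genes.

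Of 16 genes for mTORC1 docking at the lysosome and for the control of TFE factors, 13 were lower in untreated adipocytes (median -0.31). In the limma model 2 of them fell, Flcn and its partner Fnip1, where 5.37% of all genes fell. Fnip2, the other folliculin partner, read 7.29, 7.73 and 8.87 in fibroblasts and 6.78, 6.71 and 6.82 in adipocytes. At 1.58 it was the 1 gene of this list at least 2-fold higher with AICAR in fibroblasts, against 1.7% of all genes. In the list of mannose 6-phosphate sorting 8 genes passed the filter, 4 lower and 4 higher in untreated adipocytes. Gnptab, a subunit of the enzyme that makes the mannose 6-phosphate tag, rose by 0.75 (limma adjusted p = 0.0322). It was the 1 gene of the 8 to pass, where 5.22% of all genes rose. Sort1 (sortilin), a receptor that carries proteins to lysosomes and to the glucose transporter compartment of fat cells, read 8.0, 8.28 and 5.44 in fibroblasts and 7.88, 9.29 and 8.28 in adipocytes. Its AICAR fibroblast value was the lowest of the 6, a difference of -2.56 from the control, and its adenine adipocyte value the highest. In AICAR fibroblasts the medians of these lists were -0.29 (further hydrolases), -0.13 (V-ATPase), -0.02 (autophagy), -0.01 (mTORC1 docking) and -0.25 (sorting).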

How the data were processed

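RNA from 6 cultures, 1 per condition, was biotin-labelled with a whole-transcript kit for Affymetrix arrays, per the labels. The deposited values are log2 signals of 35556 probe sets from the authors, who named Transcriptome Analysis Console 1.0.0.234 and mm10, per the submitters' processing notes. How background and normalization were handled is not given in the sources used here. No detection calls were used, and folds of dim probe sets rest on that unknown background step.

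The platform annotation gave 1 symbol for 21789 probe sets, several for 1621 and none for 12146. The probe set with the highest mean stood for its gene, and genes whose mean signal reached the median of genes (5.87) were tested. Differences of at least 2-fold were counted in 7 comparisons. limma 3.58.1 (R 4.3.3) fitted state and medium additively over 9969 genes, with Benjamini-Hochberg adjustment at 0.05, 2 residual and 3.64 prior degrees of freedom. Data of 9969 genes were simulated with additive changes and the same noise for every gene. There the state term recovered 100% of 2-fold changes, with 17 false calls of 217. The real departures from additivity differ between genes, so this does not give the recovery in these data.

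The members and lists were chosen with earlier results of these data known. All 6 values are given for members 2-fold apart in a comparison or passing a term, and for TFE factors. Other lists name the largest differences, at most 3 a comparison. Their genes beyond these, named because a count was small or a term was passed, were chosen after their values were seen. The number of arrays limits the precision. Alternatives were scalings, filters, probe set rules, a 1.5-fold threshold, a variance trend and leaving out pairs of arrays.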

Additional observations from a re-analysis of the deposited data

Results flagged for a closer look

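Ctsk had responses of opposite sign to AICAR in the 2 cell states, each of at least 1.5-fold. It stood at -0.60 against the control in fibroblasts and at 0.62 in adipocytes, where AICAR had been withdrawn for 3 days before harvest. Both were close to the threshold (1.51-fold and 1.53-fold). After quantile normalization the fibroblast value was -0.56, under 1.5-fold, so the condition was no longer met. Each value rests on 1 pair of arrays, and the difference between the states was not tested. No other member met this condition for adenine or AICAR.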

How the results depend on the processing

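With a 1.5-fold threshold the counts of members apart rose to 24 for untreated adipocytes against fibroblasts (18% of all tested genes), 14 for AICAR in fibroblasts (19%), 15 for AICAR against adenine in fibroblasts (18.9%), 3 for adenine in adipocytes (1368 of 9969 genes), 2 for AICAR in adipocytes (3.66%) and 7 for AICAR against adenine in adipocytes (11.3%). That is 7.32%, 4.88% and 17.1% of members for the 3 adipocyte comparisons. For adenine in fibroblasts the count was again 0 (0.863%). After quantile normalization the median for AICAR in fibroblasts moved from -0.22 to -0.10, and Ppt1 (untreated adipocytes against fibroblasts, -0.99) and Ctsk (AICAR against adenine in fibroblasts, -0.98) slipped just under 2-fold. The members that fell with state numbered 12 with all arrays, 5 without the adenine pair and 0 without the control pair, and 15 without the AICAR pair. Under quantile normalization, median centring, both other filters and the mean of all probe sets, no median changed sign (adenine in adipocytes ranged from -0.20 to -0.03), and every count at 2-fold or in the model stayed within 1.5 times. Of the 168 differences of members shown on all arrays, those called at 2-fold kept their direction under quantile normalization, median centring and the mean of all probe sets. Some small differences that were not called changed sign. Ctsa with AICAR in fibroblasts, for example, went from -0.05 to 0.09 after quantile normalization. The model pairs the arrays of each medium, and the labels number no replicates. Leaving out Cd68, a choice made after seeing the data, took 1 member each from both AICAR counts in fibroblasts. A single array per condition and the lack of detection calls limit what can be read, most of all for Cln3, Ctsh, Ctss and Cd68.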

Other observations

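Both members with more than 1 probe set had the higher one in the report. The second probe set of Arsb, on a lower level, read 7.01, 7.15 and 5.70 in control, adenine and AICAR fibroblasts and 6.62, 6.12 and 6.31 in adipocytes, with the AICAR fibroblasts lowest as for the first. The second probe set of Mitf lay between 1.42 and 1.96 on all arrays, below the filter floor.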
